A study of Mus musculus with 6 samples.

Results

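Apob and 7 genes whose products load lipid onto apolipoprotein B or carry the bulky particle out of the endoplasmic reticulum were followed in sorted mouse hepatocytes, as 8 of the 15565 genes in the count table. The members (Apob, Mttp, Tm6sf2, P4hb, Mia2, Mia3, Surf4 and Sar1b) were selected on their roles and on values of the comparison of TERT(High) with TERT(Low) cells itself, so their levels and fold changes between these groups are a description and no test of the members. Each member was found as a row of the table, and all 8 had enough counts to enter the fit of 13288 genes. Hepatocytes of 3 mice were sorted by TERT status, and each mouse gave 1 TERT(High) and 1 TERT(Low) library, so each group holds 3 libraries. All the animals were C57BL/6, were 2 months old and carried Tert(CreERT2/+); R26(LSL-Tomato/+), which couples a Cre recombinase made from the Tert locus to a Tomato reporter. Both groups therefore share strain, age and both alleles, and differ in the sorted TERT status. The labels name no treatment.

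The liver exports triglyceride in very low density lipoprotein, a particle built around a single very long protein, apolipoprotein B. The protein is lipidated while it is still entering the endoplasmic reticulum, by a transfer protein that works as a complex with protein disulfide isomerase. The finished particle is too large for a usual COPII vesicle, and cargo receptors and large scaffold proteins at the exit site help it to leave.

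The 3 members that were higher in TERT(High) cells (Apob, Mia2 and Mia3), and P4hb, the most abundant member per length, are shown by the stretch just upstream of their first annotated exon, because members that move together invite a look at their start sites. The letters are RefSeq reference sequence of GRCm38.p6, 5′ to 3′ on the strand of the gene, with capitals for the motifs found on either strand. The stretches are Apob chr12:7977429-7977628 (plus strand), Mia2 chr12:59095382-59095581 (plus strand, the first of 3 annotated starts), Mia3 chr1:183369566-183369765 (minus strand) and P4hb chr11:120573254-120573453 (minus strand).
Apob: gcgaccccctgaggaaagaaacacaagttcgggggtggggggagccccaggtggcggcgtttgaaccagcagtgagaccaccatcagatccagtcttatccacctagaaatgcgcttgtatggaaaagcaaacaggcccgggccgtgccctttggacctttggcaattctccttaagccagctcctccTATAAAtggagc
Mia2: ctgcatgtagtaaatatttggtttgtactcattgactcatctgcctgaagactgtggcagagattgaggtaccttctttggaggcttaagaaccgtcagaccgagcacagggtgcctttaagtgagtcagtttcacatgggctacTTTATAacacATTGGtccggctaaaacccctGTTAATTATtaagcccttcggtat
Mia3: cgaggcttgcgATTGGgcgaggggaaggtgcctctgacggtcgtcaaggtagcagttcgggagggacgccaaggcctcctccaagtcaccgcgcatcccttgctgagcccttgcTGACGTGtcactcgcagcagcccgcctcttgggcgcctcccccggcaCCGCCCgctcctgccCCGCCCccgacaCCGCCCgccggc
P4hb: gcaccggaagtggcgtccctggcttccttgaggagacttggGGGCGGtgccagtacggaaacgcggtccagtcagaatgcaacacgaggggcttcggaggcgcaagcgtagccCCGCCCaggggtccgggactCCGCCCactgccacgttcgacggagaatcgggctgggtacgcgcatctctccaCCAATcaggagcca
The capitals mark the TATA box (TATAAA), the GC box (GGGCGG), the CCAAT box (CCAAT), the core of an HNF1 motif (GTTAATNAT) and a TGACGTG core bound by ATF6 or XBP1. A core of the HNF4 motif (CAAAGTCCA or CAAAGGTCA) was searched too, and the set of motifs was chosen after the sequences had been seen. Windows of 300 bases, from 250 before to 50 after each RefSeq start, were searched on both strands, and 7 of the 8 members had a window. Tm6sf2 is not among the members with a window.

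The start regions of the 3 higher members did not share a motif set. Apob had a TATA box and none of the exact letters of the other motifs. The box began 60 bases before the RefSeq start, chr12:7977677. The printed Apob stretch stops before that start, at 7977628, just ahead of the first annotated exon base. At its first start, chr12:59095591, Mia2 held a TATA box, a CCAAT box and the HNF1 core, which began 64, 54 and 33 bases before that start. The TATA and CCAAT letters of Mia2 lie on the opposite strand, while the TATA letters of Apob lie on the strand of the gene. The printed Mia2 stretch also stops before its start, at 59095581. Mia3 had no TATA box and held a CCAAT box, the TGACGTG core and 3 GC boxes, and P4hb held 3 GC boxes and a CCAAT box. Of 32851 mouse windows of the same length, 13.6% held a TATA box, 35.7% a GC box, 37.4% a CCAAT box, 0.801% the HNF1 core, 2.01% the TGACGTG core and 0.950% an HNF4 core. None of the member windows held the HNF4 letters, which says only that these letters are not in these windows.

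The libraries held 53585174 to 76164917 counts each. Levels are CPM, a gene's counts relative to its library's TMM-scaled total, and a call is an adjusted p under 0.05 in edgeR's quasi-likelihood test over all tested genes. Tert itself had 30 to 38 counts in the TERT(High) libraries and 12 to 21 in the TERT(Low) libraries, with the 2 groups not overlapping and a log2 fold change of 0.87 ± 0.44 (SE) that was not called (edgeR adjusted p = 0.249). The summed level of 12 hepatocyte markers was 138485 to 154991 CPM in TERT(High) and 127662 to 154205 CPM in TERT(Low). Alb, the most abundant of them, was wholly higher in TERT(High), at 83330 against 62650 CPM on average. Ttr, Apoa1, Ahsg and Asgr1 were wholly lower, and the other hepatocyte markers overlapped. Of all tested genes, 17.5% were wholly higher and 15.9% wholly lower. Of the 12, edgeR called only Asgr1, as lower. Of the 7 endothelial markers, summed at 24.9 to 46.2 CPM against 18.1 to 19.6 CPM, Kdr and Lyve1 were called higher. Pecam1, Stab2, Cdh5 and Tek were wholly higher too but not called. Clec4g overlapped between the groups, at 8.75 against 9.25 CPM on average. The 7 stellate cell and fibroblast markers summed to 239 CPM in TERT(High) mouse 1 and to between 2.57 and 12.5 CPM in every other library. In TERT(High) mouse 1 the sum came mostly from Col1a1 and Col1a2, at 127 and 105 CPM. Each other marker of that list was at no more than 3.46 CPM there. The 7 Kupffer cell and macrophage markers summed to 12.5 to 73.1 CPM in TERT(High), highest in mouse 3, and to 10.4 to 32.9 CPM in TERT(Low). The sum of the 4 measured neutrophil markers was wholly higher in TERT(High), at 1.63 to 4.72 CPM against 0.272 to 1.46 CPM. Singly, S100a9 and Csf3r were wholly higher, while S100a8 and Retnlg overlapped between the groups. The 3 cholangiocyte markers summed to 2.05 to 11.7 CPM against 2.13 to 3.26 CPM, and the 5 lymphocyte markers to 0.231 to 1.77 CPM against 0.0954 to 0.550 CPM. The highest cholangiocyte sum, in TERT(High) mouse 1, came mostly from Spp1 at 10.8 CPM. In these 6 lists edgeR called no marker other than Kdr and Lyve1. The enterocyte is the other cell type that makes apoB particles. Of its 5 listed markers 3 were measured, and they summed to 259 to 540 CPM against 356 to 749 CPM. That sum came mostly from Apoa4, with Vil1 at no more than 0.114 CPM, and is not read as a measure of enterocyte RNA. The part of other cell types in the results was not tested. Fewer cells with a transcript and less of it per cell cannot be told apart in these sorted populations.

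Apob (chr12:7977629-8016839, plus strand, 29 exons), the structural protein of the particle, was higher in the TERT(High) library of every mouse. Its levels were 2177, 2255 and 2830 CPM in TERT(High) mice 1, 2 and 3 and 368, 255 and 433 CPM in the TERT(Low) libraries of the same mice. Every TERT(High) value lay above every TERT(Low) value, and the lowest of the former was several times the highest of the latter. The means were 2421 ± 357 and 352 ± 90.3 CPM (SD, n = 3 each), a ratio of 6.88 and a log2 fold change of 2.78 ± 0.25 (SE). Within the mice the log2 difference was 2.57, 3.15 and 2.71. Among the tested genes Apob stood 20th from the top by log2 fold change, and by mean CPM, not scaled for length, it ranked 57 in TERT(High) and 358 in TERT(Low).

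Mia2 and Mia3, which encode the TANGO1-family scaffolds that hold bulky cargo at the exit site, were the other members with higher levels. Mia3, the TANGO1 receptor itself, was at 28.2, 46.1 and 59.2 CPM in TERT(High) mice 1, 2 and 3 and at 7.37, 6.19 and 8.94 CPM in TERT(Low). The groups did not overlap, with mouse 1 the lowest of the TERT(High) libraries, and the ratio of the means was 5.94 (log2 fold change 2.57 ± 0.31, SE). The row named Mia2 was at 25.0, 15.3 and 21.3 CPM in TERT(High) and at 3.31, 3.04 and 2.94 CPM in TERT(Low). Its groups did not overlap either, and the ratio of the means was 6.64 (log2 fold change 2.73 ± 0.22, SE). In the TERT(High) libraries the order of the mice was thus different in the 2 scaffold genes: mouse 1 was the highest for Mia2 and the lowest for Mia3. Mia3 lies at chr1:183326236-183369565 (minus strand) and Mia2 at chr12:59095582-59190220 (plus strand).

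**Figure D1:**
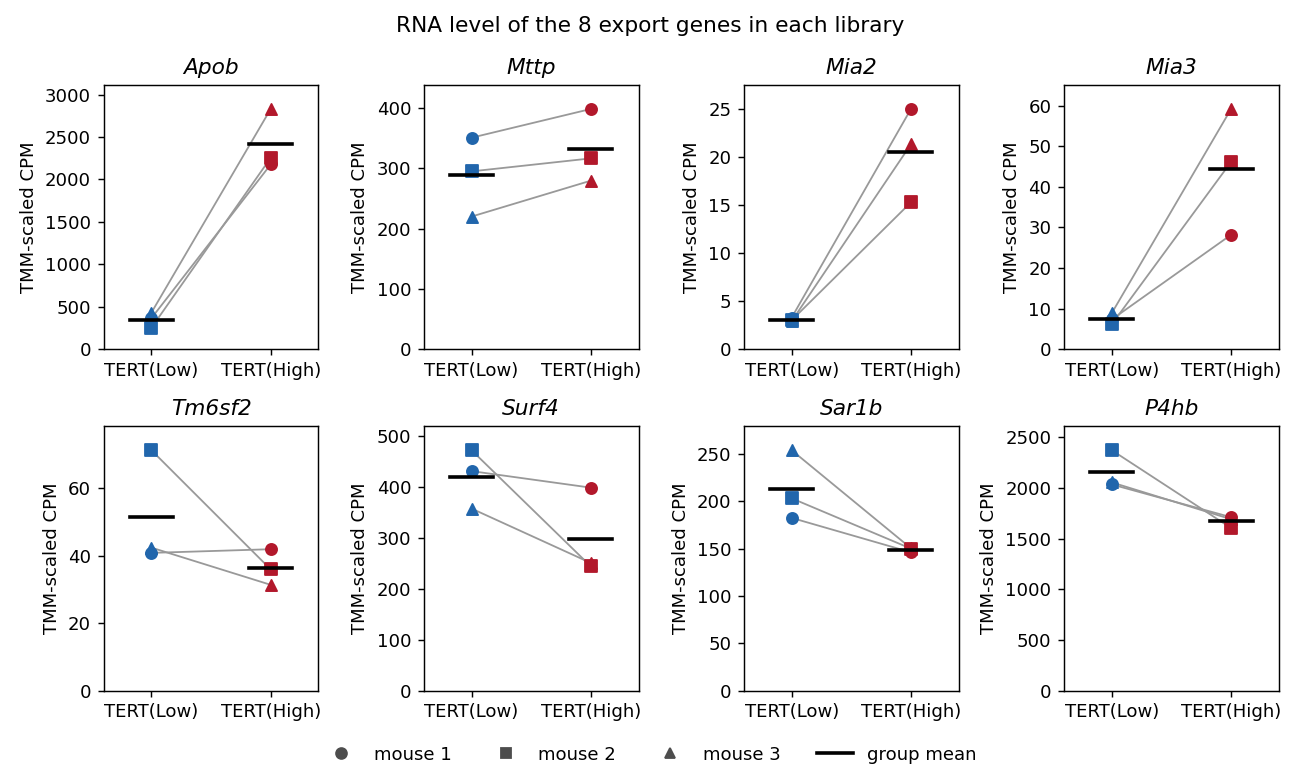
TMM-scaled CPM (vertical axes, from 0) of the 8 export genes in the TERT(Low) and TERT(High) library of each mouse, joined by a grey line per mouse, with group means as black bars. Apob, Mia2 and Mia3 were wholly higher in TERT(High), Sar1b and P4hb wholly lower, and the 2 groups of Mttp, Tm6sf2 and Surf4 overlapped.

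Mttp (chr3:138089855-138143418, minus strand), which encodes the large subunit of the microsomal triglyceride transfer protein, was close to level between the groups. Its values were 398, 316 and 279 CPM in TERT(High) mice 1, 2 and 3 and 350, 295 and 220 CPM in TERT(Low). The groups overlapped, although TERT(High) was the higher of the pair in 3 of 3 mice, with log2 differences of 0.18, 0.10 and 0.35. The fitted log2 fold change was 0.20 ± 0.22 (SE), and without TERT(High) mouse 1 it was 0.00019. Mttp shares 457 exon bases with Trmt10a on the opposite strand and 132 with the antisense model Gm43691, and the strand setting used in counting is not given in the sources used here.

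P4hb (chr11:120560298-120573253, minus strand), protein disulfide isomerase and the small subunit of the same transfer protein, was lower in TERT(High) cells. Its levels were 1712, 1606 and 1692 CPM in TERT(High) and 2036, 2374 and 2056 CPM in TERT(Low). The groups did not overlap, and TERT(High) was the lower in 3 of 3 mice, with a log2 fold change of -0.37 ± 0.14 (SE) that was not called. Tm6sf2 (chr8:70072924-70080066, plus strand), a membrane protein needed for full lipidation of the particle, was at 41.9, 36.0 and 31.4 CPM in TERT(High) and at 40.9, 71.3 and 42.4 CPM in TERT(Low). Those groups overlapped, and the highest value came from TERT(Low) mouse 2. The log2 fold change of Tm6sf2 was -0.50 ± 0.26 (SE), with TERT(High) lower in 2 of 3 mice and not called.

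Surf4 (chr2:26920041-26933776, minus strand), the cargo receptor that binds apoB particles and several other secreted proteins, was at 399, 244 and 251 CPM in TERT(High) and at 431, 472 and 358 CPM in TERT(Low). The groups overlapped through TERT(High) mouse 1, and TERT(High) was lower in 3 of 3 mice, with a log2 fold change of -0.50 ± 0.24 (SE) that was not called. Without that library the log2 fold change was -0.81 ± 0.17 (SE) and Surf4 was called lower. Surf4 shares 144 exon bases with Surf2 on the opposite strand. Sar1b (chr11:51763663-51791953, plus strand) encodes the GTPase that starts coat assembly for these particles. Its levels were 146, 150 and 151 CPM in TERT(High) and 183, 203 and 254 CPM in TERT(Low). The TERT(High) libraries were tight and wholly below the others, with a log2 fold change of -0.52 ± 0.16 (SE) that was not called.

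In all, 3 members (Apob, Mia2 and Mia3) were called higher in TERT(High) and 0 were called lower, beside 4.43% of all tested genes called higher and 3.71% called lower. Sar1b and P4hb were below an unadjusted p of 0.05 in the lower direction in edgeR and were called lower by DESeq2, while limma-voom called no member lower. Over all tested genes, edgeR's unadjusted p was under 0.05 for 16.3% in the higher and 12.4% in the lower direction, 13.6% and 11.3% were called by DESeq2 (of 11317 genes with an adjusted p), and 10.3% and 8.31% by limma-voom. The values of 3 members lay wholly above and those of 2 wholly below, beside 17.5% and 15.9% of tested genes. Since this comparison chose the members, nothing is read from these counts. The median log2 fold change was -0.08 over the 8 members and -0.01 over all tested genes. Under an adjusted p of 0.05 the authors' deposited table holds 15.8% of 10858 genes as higher and 13.4% as lower, and the members counted 3 higher, 3 lower and 2 neither. The authors' deposited table gives log2 fold changes of 2.67 for Apob, 2.56 for Mia2, 2.34 for Mia3, 0.19 for Mttp, -0.44 for Tm6sf2, -0.51 for Surf4, -0.50 for Sar1b and -0.64 for P4hb. Its 3 lower members were Surf4, Sar1b and P4hb.

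Per kilobase of annotated transcript, the order of the members differed between the groups, with Apob 2nd in TERT(High) and 6th in TERT(Low), and with Mttp and Surf4 in opposite order though overlapping in both groups. In TERT(High) the order of mean CPM per kilobase was P4hb at 584, Apob at 174, Sar1b at 124, Mttp at 108, Surf4 at 90.8, Tm6sf2 at 25.2, Mia3 at 15 and Mia2 at 4.90. In TERT(Low) it was P4hb at 753, Sar1b at 178, Surf4 at 128, Mttp at 93.8, Tm6sf2 at 35.6, Apob at 25.3, Mia3 at 2.53 and Mia2 at 0.738. The neighbours Sar1b and Mttp, and Mttp and Surf4, overlapped over the libraries in TERT(High), as did Surf4 and Mttp, and Tm6sf2 and Apob, in TERT(Low), and the other neighbours were apart. The lengths of Mia2 and Mia3 are uncertain, since the annotated Mia3 model is short and the Mia2 locus is split over 2 rows. With all annotated exons merged into 1 length, Mttp stood at 53.3 and 46.4 CPM per kilobase, below Surf4 in both groups.

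**Figure D2:**
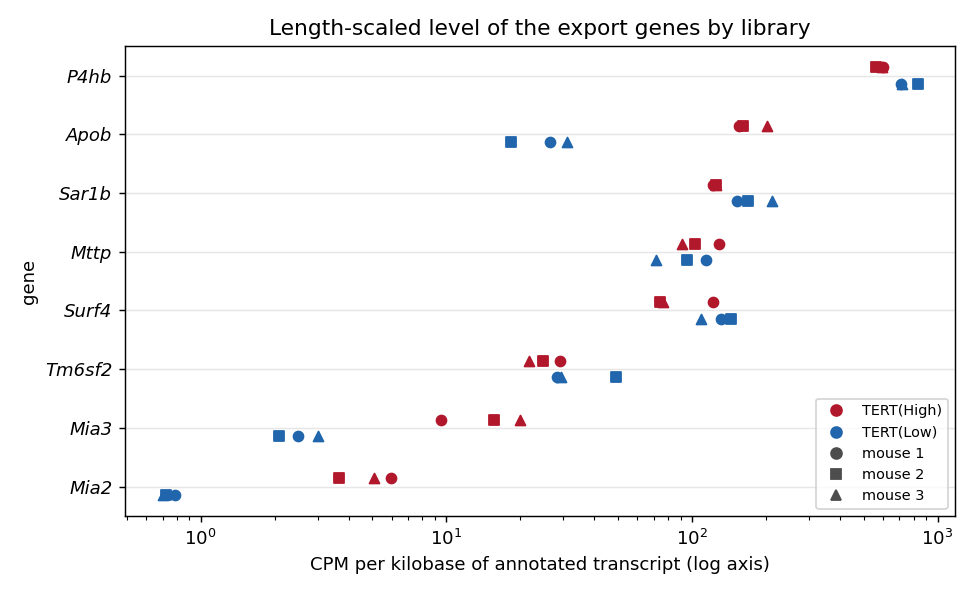
CPM per kilobase of annotated transcript (log axis) for each export gene in the 3 TERT(High) and 3 TERT(Low) libraries, ordered by the TERT(High) mean. Apob was second at 174 CPM per kilobase in TERT(High) and sixth at 25.3 in TERT(Low), and P4hb was first in both.

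The ratio of Apob to its transfer protein, both per kilobase, was over 1 in TERT(High) and under 1 in TERT(Low). Apob stood at 1.21, 1.57 and 2.23 times the Mttp level in TERT(High) mice 1, 2 and 3, and at 0.231, 0.191 and 0.434 times it in TERT(Low), with group means of 1.67 ± 0.52 and 0.285 ± 0.131 (SD, n = 3 each). Against P4hb, Apob was 0.261, 0.288 and 0.343 in TERT(High) and 0.0371, 0.0220 and 0.0433 in TERT(Low). In both groups the level of P4hb per kilobase exceeded that of Apob. The ratios to Mttp depend on its length, which is 3.07 kb for the annotated transcript and 6.21 kb with all exons merged. With merged exons every ratio to Mttp is higher. In TERT(Low) mouse 3 Apob is then at 31.1 and Mttp at 35.4 CPM per kilobase. The ratios carry no correction for the trend of fold change with transcript length given below. Levels of RNA per length are given here, and the proteins were not measured.

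The Mia2 locus is held in 2 rows of the count table, Mia2 and Ctage5, and RefSeq lists Ctage5 as an older name of Mia2. The row named Ctage5, which was looked at after its values were seen, was at 93.3, 61.3 and 82.0 CPM in TERT(High) and at 25.4, 24.0 and 29.5 CPM in TERT(Low). It held more counts than the row Mia2 in every library and had the smaller difference, 3.0-fold, with a log2 fold change of 1.58 ± 0.20 (SE). Mia2 took 21.1%, 20.0% and 20.7% of the counts of both rows in TERT(High) and 11.5%, 11.2% and 9.07% in TERT(Low). The share was thus about doubled, with groups that did not overlap. With both rows added together, an alternative added after seeing the data, the log2 fold change of the locus was 1.76 ± 0.20 (SE), and the call remained. Which exons each row counts is not given in the sources used here.

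**Figure D3:**
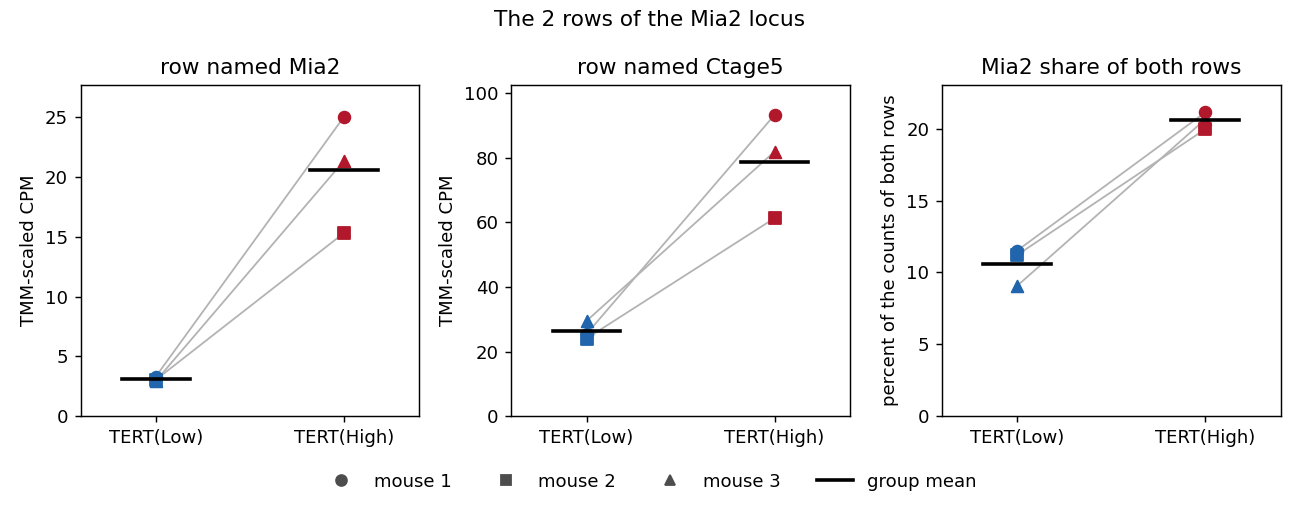
TMM-scaled CPM of the count table rows Mia2 and Ctage5, and the percent of their joint counts held by Mia2, in the TERT(Low) and TERT(High) library of each mouse, joined by a grey line per mouse, with group means as black bars. Both rows were higher in all 3 TERT(High) libraries, and the Mia2 share was 20.0% to 21.1% there against 9.07% to 11.5% in TERT(Low).

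Transcript length moved with the fold change over the whole table, and Apob has the longest transcript of the members, at 13934 nt. Tested genes split into 5 equal classes of transcript length had median log2 fold changes of -0.46 for the shortest class, then -0.16, 0.06, 0.26 and 0.66 for the longest. Tm6sf2 (1446 nt, log2 fold change -0.50, not called, overlapping groups) and Sar1b (1201 nt, -0.52, not called) are in the shortest class, and P4hb (2861 nt), Mttp (3072 nt) and Mia3 (2961 nt) in the middle one. Mia2 (4194 nt) and Surf4 (3281 nt) are in the fourth, and Apob is in the longest. Among the 220 tested genes of at least 10000 nt the median log2 fold change was 1.0, and Apob stood 3rd. Mia3 lay outside the 10th to 90th percentile of its class, which ran from -0.60 to 0.84, as did Mia2 (-0.62 to 1.04) and Apob (-0.81 to 1.56) in theirs, while the other 5 members were inside. The classes of Mia2 and Mia3 rest on the uncertain lengths described above.

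**Figure D4:**
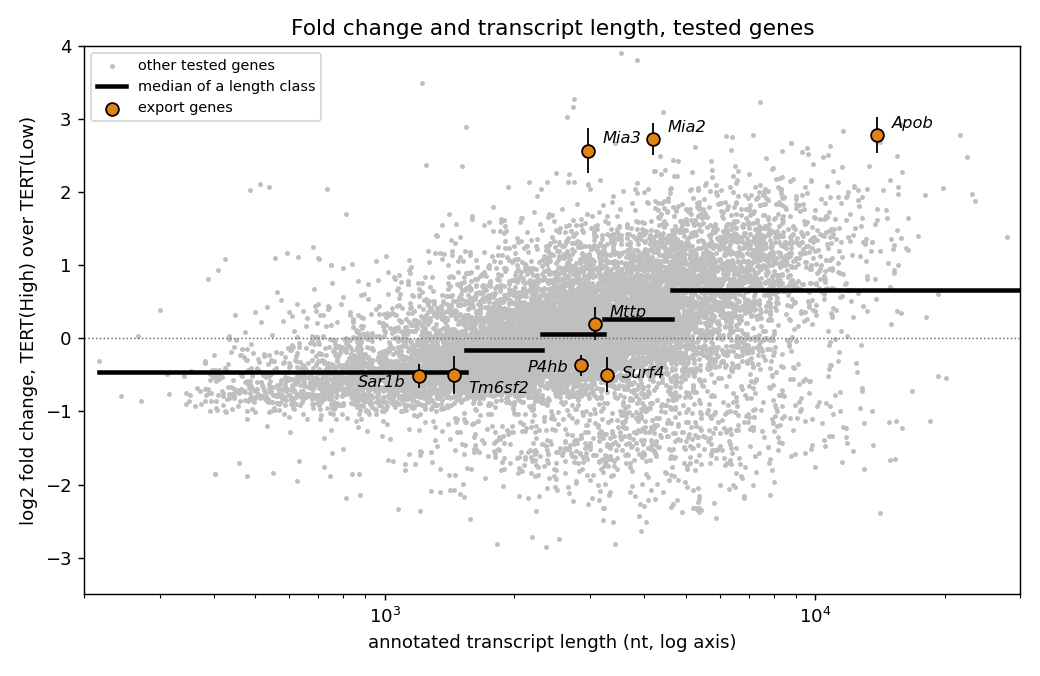
Log2 fold change of TERT(High) over TERT(Low) against annotated transcript length (log axis) for 12544 tested genes, with the 8 export genes in orange with SE bars and the median of each of 5 length classes as a black line (4 further genes lie outside the axes). The class medians run from -0.46 to 0.66, and Apob, Mia2 and Mia3 lie above them at 2.78, 2.73 and 2.57.

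When each library was corrected for transcript length and GC content, the log2 fold change of Apob was 1.85 ± 0.24 (SE), that of Mia2 2.33 ± 0.23 and that of Mia3 2.40 ± 0.30. In that fit Mttp was at 0.13, Tm6sf2 at -0.15, Surf4 at -0.49, Sar1b at -0.38 and P4hb at -0.35. The corrected values of Mia2 and Mia3 rest on uncertain lengths. The annotated Mia3 model is short, and the Mia2 locus is split between rows. With merged exon lengths, an alternative added after seeing the data, Apob was at 2.09, Mia2 at 2.14, Mia3 at 2.45 and P4hb at -0.12. The signs of all 8 members held, but edgeR called 0 genes in either corrected fit (smallest adjusted p 0.116 and 0.135), while 1144 higher genes and 543 lower genes had an unadjusted p under 0.05 in the first. What part of the difference in Apob goes with its length cannot be told apart from the group in these data.

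Among the named genes, Mia3 had the profile over the 6 libraries most like that of Apob. Likeness was the root mean square difference of log2 CPM centred on each gene's mean. It was ranked over 7192 genes of at least 5 CPM on average, with unnamed gene models left out, and was 0.28 for Mia3. Next came Chd1, a chromatin remodeler, at 0.30, Mia2 at 0.33, Iqgap2, a scaffold protein of the cytoskeleton, at 0.38, and Ranbp2, a large nucleoporin, at 0.40. Mia2 and Mia3 were chosen with this contrast known, so their places are a description. Chd1, Iqgap2 and Ranbp2 were 5.0, 4.93 and 5.72 times as high in TERT(High), and their transcripts measure 7916, 5771 and 9608 nt. Mttp ranked 2534 and Surf4 6145 among the 7192.

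Around the members, 124 further genes of the pathway were tested in 10 lists, and edgeR called 5 of them higher and 2 lower. These counts are near or below the 4.43% and 3.71% called among all tested genes, and are no result about the pathway. The counts of each list below stand beside the shares over all genes given with the members: 16.3% higher and 12.4% lower by unadjusted p in edgeR, 13.6% and 11.3% in DESeq2, and 10.3% and 8.31% in limma-voom. The list of the Apob messenger editing complex held 2 called higher of 7: A1cf, the RNA-binding partner of the editing enzyme, at 83.5 ± 13.8 against 37.7 ± 8.21 CPM (SD, n = 3 each; log2 fold change 1.15 ± 0.21, SE; edgeR adjusted p = 0.0324), and Syncrip, an RNA-binding protein of the complex, at 20.1 ± 5.28 against 9.83 ± 1.28 CPM (1.03 ± 0.23, edgeR adjusted p = 0.0468). The enzyme itself, Apobec1, named after its values were seen, was at 4.12 ± 1.4 and 3.40 ± 0.29 CPM with overlapping groups. By unadjusted p this list had 4 higher and 0 lower genes under 0.05, while 3 were called higher and 0 lower by DESeq2 and likewise by limma-voom. Its median log2 fold change was 0.71 (0.85 with the length and GC correction), beside -0.01 for all tested genes.

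Of 18 genes of the COPII coat and exit sites, 1 rose and 2 fell in edgeR, with 6 higher and 2 lower genes by unadjusted p, 5 and 2 called by DESeq2, and 4 and 2 by limma-voom. The median log2 fold change was 0.30, and 0.12 with the length and GC correction. Sec23ip, which binds the inner coat, rose by a log2 fold change of 0.88 ± 0.17 (SE; edgeR adjusted p = 0.0364), from 9.22 ± 0.69 to 17.0 ± 2.9 CPM. Sec13, an outer coat subunit, fell by 0.75 on the log2 scale, to 50.3 ± 2.66 from 84.8 ± 9.69 CPM (edgeR adjusted p = 0.0340). Pef1, a calcium-binding adaptor of the ubiquitin ligase that enlarges the coat, fell by 0.67 on the log2 scale (edgeR adjusted p = 0.0496). Of 13 genes for fusion with the Golgi, Trip11, a very long Golgi tether, was called higher (2.39 ± 0.54, SE; 4.67 ± 2.94 against 0.887 ± 0.321 CPM; edgeR adjusted p = 0.0468), and so was Uso1, the tether p115 (1.05 ± 0.19, edgeR adjusted p = 0.0324). By unadjusted p the fusion list had 3 higher and 3 lower genes, as in the calls of DESeq2, and limma-voom called 3 higher and 2 lower. Its median was -0.09, and the sign differed in 9 of 20 alternatives, at 0.09 with the length and GC correction.

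**Figure D5:**
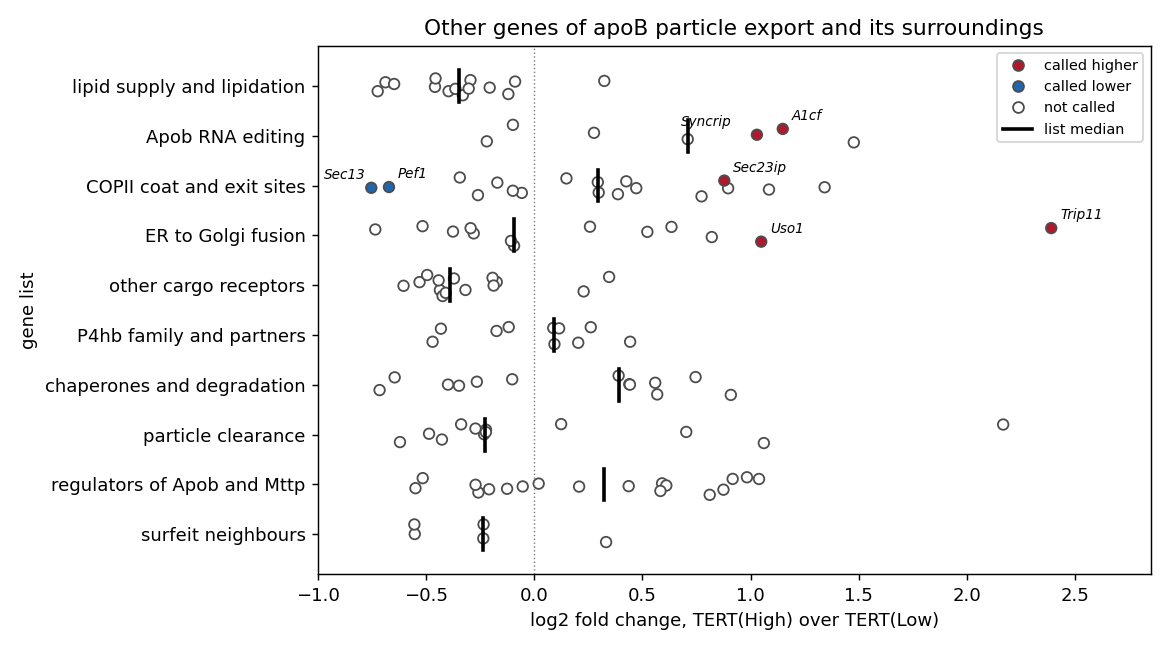
Log2 fold change of TERT(High) over TERT(Low) for the tested genes of the 10 further lists, 1 point per gene spread vertically for sight, filled red where edgeR called the gene higher and blue where lower, with list medians as black bars. 5 genes were called higher (A1cf, Syncrip, Sec23ip, Uso1 and Trip11) and 2 lower (Sec13 and Pef1).

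Genes listed for lipid supply to the particle and its lipidation were not called by edgeR, 0 of 14. By edgeR's unadjusted p, 4 lower ones and 0 higher ones lay under 0.05. DESeq2 called 4 of them lower and limma-voom 3, and the median log2 fold change was -0.35 (-0.21 with the length and GC correction). Ces1d and Ces1g, both carboxylesterases, were at 869 ± 286 against 945 ± 236 and 470 ± 101 against 580 ± 88.4 CPM. Other cargo receptors gave 0 calls of 14 in edgeR, with 2 lower at an unadjusted p under 0.05, 2 lower in DESeq2, 3 lower in limma-voom and a median of -0.39 (-0.11 with the length and GC correction). Lman2, a lectin receptor, was at 226 ± 22.4 against 343 ± 66.7 CPM, and Tmed2 at 250 ± 78.9 against 336 ± 28.4 CPM.

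The family and partners of P4hb gave 0 calls of 10 in edgeR, with 1 lower at an unadjusted p under 0.05 and 1 lower in both DESeq2 and limma-voom, and a median of 0.09 (0.06 with the length and GC correction). Pdia3 was at 281 ± 41.9 against 244 ± 65.2 CPM and Pdia6 at 216 ± 29.2 against 291 ± 52.4 CPM. Chaperones and degradation factors that check apoB gave 0 calls of 13, 6 higher and 3 lower ones lying under 0.05 by unadjusted p, while DESeq2 called 2 higher and 1 lower and limma-voom 2 and 2. Hspa5, the chaperone BiP, was at 667 ± 232 against 509 ± 85.2 CPM, and Calr at 636 ± 29.2 against 810 ± 399 CPM. The median log2 fold change of this list was 0.39, and -0.04 with the length and GC correction.

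Genes of particle clearance gave 0 calls of 12 in edgeR, with 2 higher at an unadjusted p under 0.05, 2 higher in DESeq2 and 1 in limma-voom, and a median of -0.23. Lrp1, a very large receptor for particle remnants, was at 116, 631 and 420 CPM in TERT(High) mice 1, 2 and 3 and at 91.1, 117 and 51.4 CPM in TERT(Low), overlapping through mouse 1, and Sdc1 was at 322 ± 125 against 496 ± 253 CPM. Regulators of Apob and Mttp gave 0 calls of 18 in edgeR, with 5 higher at an unadjusted p under 0.05, 3 higher in DESeq2 and 3 in limma-voom, and a median of 0.32 (0.10 with the length and GC correction). Hnf4a, a main hepatocyte transcription factor, was at 500.0 ± 179 against 370 ± 64.0 CPM, and Cebpa at 229 ± 58.4 against 250 ± 29.8 CPM. The surfeit genes next to Surf4 gave 0 calls of 5 in edgeR, with 2 lower at an unadjusted p under 0.05, 2 lower in DESeq2 and 1 in limma-voom, and a median of -0.24 (0.11 with the length and GC correction). Surf1 was at 25.5 ± 0.77 against 37.4 ± 2.83 CPM and Rpl7a at 333 ± 33.3 against 489 ± 58.9 CPM.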

How the data were processed

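RNA of sorted hepatocytes was sequenced from 6 libraries, a TERT(High) and a TERT(Low) library of each of 3 mice, with a stranded mRNA kit per the labels' protocols. The submitters' processing notes name TopHat2 2.0.13, Trim Galore 0.4.0 and DESeq2, with mm10 as genome. How reads were counted (tool, strand, annotation) is not given in the sources used here. The authors deposited raw counts per gene (15565 genes). The signal column of the authors' deposited table is the mean over libraries of scaled counts, and was not used. The authors' deposited log2 fold changes and p-values come from their own comparison.

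The main fit was edgeR 4.0.16 in R 4.3.3 (filterByExpr, TMM, robust quasi-likelihood, group only; 13288 genes tested; Benjamini-Hochberg adjusted p under 0.05). The SE is the absolute log2 fold change over the square root of F, and log CPM used a prior count of 2. The fit was tested on simulated counts that held no pairing by mouse and no trend with transcript length or GC. That test therefore does not cover these features of the data. Alternatives were DESeq2 1.42.0, limma 3.58.1 voom with sample weights, other scalings and filters, libraries or mice left out, mouse as a block, and spline offsets for transcript length and GC (4 degrees of freedom, GENCODE M21 lengths, 12548 genes). Promoters and coordinates are RefSeq GRCm38.p6, mm10 being that build. The members and lists were chosen with earlier results of these data known. Named are the 8 members, up to 4 called genes of each other list with the largest change or else its 2 most abundant genes, and the 5 genes most like Apob. Each mouse gave both libraries of its pair, per the labels, and deviations from the group means correlated at -0.089, 0.733 and 0.601 in mice 1, 2 and 3. The biological coefficient of variation, common to all genes, was 40.7%, and 29.6% with the block.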

Additional observations from a re-analysis of the deposited data

How the results depend on the processing

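No member changed sign in 21 alternative fits, and Apob, Mia2 and Mia3 were each called in 10 of them. Their log2 fold changes ranged from 1.85 to 2.96 (Apob), 2.14 to 2.90 (Mia2) and 2.31 to 2.80 (Mia3). With the rows Mia2 and Ctage5 added together, a further fit not among these 21, the locus stood lower, at 1.76, and was called. With the mouse as a replicate block, a paired fit, 721 genes were called higher and 571 lower, beside 588 and 493, and the same 3 members remained called, with Apob at 2.81. DESeq2 called 1544 higher and 1278 lower and 2 members lower, limma-voom 1373 and 1104, the strict filter 1111 and 799, and library totals alone 19 lower. Leaving out 1 library or 1 mouse gave 0 to 937 genes higher, 0 to 713 lower, 0 to 3 members higher and 0 to 1 lower: 937 and 713 came from leaving out TERT(High) mouse 1, and edgeR called 0 genes after each of the other removals, with 1071 to 1958 higher at an unadjusted p under 0.05. The length and GC offsets, alone, with the replicate block or with merged exon lengths, called 0 genes higher, 0 lower and 0 members, with smallest adjusted p of 0.116, 0.0600 and 0.135. The causes were not tested. Upper-quartile scaling moved the share of higher among all calls from 54.4% to 43.2%, and library totals alone to 97.1%, with a median log2 fold change over all genes of 0.14. The list medians changed sign in 9 of 20 alternatives for Golgi fusion, 5 for the P4hb family, 2 for clearance, 2 for surfeit neighbours and 1 for chaperones. The 3 mice limit what can be called, and Mia2 rests on 155 to 243 counts in TERT(Low).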
